A study of Mus musculus with 16 samples.

Results

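Metallothioneins and genes that answer to glucocorticoid hormone were followed in mouse quadriceps, the large muscle at the front of the thigh, at rest and after treadmill running, in mice lacking the histone deacetylase HDAC3 and in wild-type mice. The set was a fixed list of names: Mt1, Mt2, Fkbp5, Tsc22d3, Zbtb16, Sgk1, Ddit4, Cebpd and Nr3c1. All 9 were found among the 24354 rows of the deposited gene tables, and all 9 averaged at least 1 FPKM (fragments scaled by transcript length and library size), the minimum used for tests. The series holds 12 RNA-seq libraries in 4 groups of 3: exercised HDAC3-KO, exercised wild type, resting HDAC3-KO and resting wild type. All came from male C57BL/6 mice 4 months old on normal chow. Exercised mice ran 3 bouts of 1 h at 10 m/min, separated by 1 h of rest, and the quadriceps was collected 2 h after the last of them. The labels call the mutant animals HDAC3-KO and the design text speaks of HDAC3-depleted muscle; the sources used here give no allele, Cre driver or time of day at harvest, and the labels do not state that the 3 libraries of a group are 3 animals.

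Glucocorticoids are adrenal steroid hormones whose blood level rises with the daily rhythm, fasting, stress and exertion. They bind the glucocorticoid receptor, encoded by Nr3c1, which rests in the cytoplasm in a complex with Hsp90 chaperones and on binding hormone moves to the nucleus and occupies DNA at paired hexamers arranged as an imperfect palindrome. In muscle the receptor raises genes that slow protein synthesis and promote protein breakdown and the use of fat as fuel. Metallothioneins are small cysteine-rich proteins that hold zinc and copper; their genes respond both to glucocorticoids and to zinc, the second through the factor MTF1 at metal response elements close to the gene start. HDAC3 works as the enzyme of the NCoR and SMRT corepressor complexes, which nuclear receptors recruit.

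Promoters of 3 members are printed, those with 3 or more matches to the metal response element or a match to the receptor palindrome. Single matches in other members are given after the sequences. RefSeq promoter entries (build GRCm38.p6) matched 6 of the 9 genes, with 1 entry each for Mt1, Mt2, Fkbp5 and Ddit4, 3 for Tsc22d3 and 6 for Sgk1; Zbtb16, Cebpd and Nr3c1 are named only. Each line runs 5′ to 3′ on the plus strand, from 250 bases before to 30 bases after the gene start, and capitals mark the matches. Mt1 lies at chr8:94178839-94179118, Mt2 at chr8:94172368-94172647 and the Sgk1 start with the palindrome at chr10:21993640-21993919.
Mt1: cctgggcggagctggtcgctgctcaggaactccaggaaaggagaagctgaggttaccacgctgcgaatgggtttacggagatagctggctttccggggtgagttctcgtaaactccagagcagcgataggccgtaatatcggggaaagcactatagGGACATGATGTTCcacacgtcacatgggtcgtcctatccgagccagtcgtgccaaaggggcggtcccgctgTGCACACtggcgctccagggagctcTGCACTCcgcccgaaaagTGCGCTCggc
Mt2: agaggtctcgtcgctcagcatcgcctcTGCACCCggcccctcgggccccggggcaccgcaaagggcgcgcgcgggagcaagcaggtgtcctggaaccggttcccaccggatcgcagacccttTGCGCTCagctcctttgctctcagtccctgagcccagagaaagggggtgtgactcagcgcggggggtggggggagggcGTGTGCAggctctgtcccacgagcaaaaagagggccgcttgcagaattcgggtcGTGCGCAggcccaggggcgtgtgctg
Sgk1: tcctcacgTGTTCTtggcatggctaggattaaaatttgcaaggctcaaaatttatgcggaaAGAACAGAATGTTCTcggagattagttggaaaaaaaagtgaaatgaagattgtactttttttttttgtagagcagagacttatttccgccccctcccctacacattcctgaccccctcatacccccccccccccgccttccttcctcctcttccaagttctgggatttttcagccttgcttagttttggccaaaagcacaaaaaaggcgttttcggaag

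The Mt1 promoter held 3 metal response cores, whose letters are TGCGCNC or TGCACNC on either strand, at -23 to -17, 3 to 9 and 21 to 27 from the gene start. It also held 1 match to the glucocorticoid receptor palindrome (GNACA, any 3 bases, TGTNC), at -94 to -82. The Mt2 promoter held 4 cores, beginning at -223, -128, -50 and 5, and no palindrome. The printed Sgk1 promoter held the palindrome at -188 to -176, and 3 copies of the single hexamer AGAACA on either strand, of which the ones at -189 to -184 and -180 to -175 overlap the palindrome. Of the other entries, 1 of Tsc22d3 and 2 more of Sgk1 had a single hexamer, 1 of Sgk1 and the Ddit4 entry had 1 metal response core, and Fkbp5 had no match in this window. Among 32851 mouse promoter windows of 300 bases (the full entries, 250 before to 50 after the start), 25.7% held a metal response core, 1.97% held 3 or more, 19% held the single hexamer and 0.475% held the palindrome. A match is a run of letters and not a measured binding site. Mt1 and Mt2 are next to each other on chromosome 8, in the order Bbs2, Mt4, Mt3, Mt2, Mt1, Nup93. Mt3 reached at most 2.72 FPKM and Mt4 at most 0.997 FPKM in any library, so Mt1 and Mt2 carried nearly all of the family's signal.

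The targeted gene followed its label in all 12 libraries. Hdac3 stood at 5.32, 6.37 and 4.13 FPKM in replicates 1, 2 and 3 of exercised knockouts, against 31.0, 32.0 and 27.6 in exercised wild types, and at 5.51, 6.29 and 8.16 in resting knockouts, against 33.3, 31.0 and 23.7 in resting wild types. With limma on log2(FPKM + 1) it fell by 2.33 (SE 0.16, adjusted p = 0.00152) after exercise and by 1.99 (SE 0.17, adjusted p = 0.00632) at rest. FPKM summed to between 454359 and 522966 per library, 10137 to 10544 genes reached 1 FPKM, and log2 values of libraries of 1 group correlated at r = 0.954 to 0.967. The 7 muscle markers summed to 27182 to 38372 FPKM in exercised knockouts, 29809 to 43154 in exercised wild types, 27351 to 36136 in resting knockouts and 26388 to 39506 in resting wild types. Summed neutrophil and macrophage markers, 7 of 8 of them in the tables, were high in 2 libraries: 379 FPKM in exercised knockout replicate 3, beside 49.4 and 67.7 in the other two, and 523 FPKM in resting wild type replicate 2, beside 60.5 and 53.7. They lay between 31.8 and 40.4 in exercised wild types and between 33.4 and 63.1 in resting knockouts, and no list had a marker at 0 in every library of a group.

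After running, Mt1 and Mt2 stood about an order of magnitude above rest in both genotypes, 6 hormone-responsive members stood higher in wild type with no overlap, and the receptor gene stood lower. The exercised and resting libraries sit in separate tables, so table and condition cannot be told apart and exercise against rest is described, not tested. Levels are set side by side as deposited; the median gene differed by -0.02 on the log2 scale in knockouts and -0.01 in wild types. In wild types, all 3 exercised libraries lay above all 3 resting ones for 8 of the 9 members, where 6.91% of 10440 genes did so, and all 3 lay below for 1, where 8.94% of genes did so. In knockouts 4 members were higher without overlap, where 5.8% of genes were, 1 was lower, where 9.6% were, and 4 overlapped. The members' median log2 ratio of exercise to rest was 0.92 in knockouts and 1.58 in wild types. Among other cell types, 5 summed fibroblast markers were lower without overlap in exercised wild types, at 271 to 388 FPKM, than in resting wild types, at 392 to 569, and the 4 satellite cell markers stood at 1.59 to 2.54 and 3.07 to 3.74; the neutrophil and macrophage sums were also lower without overlap, at 31.8 to 40.4 in exercised and 53.7 to 523 in resting wild types. In knockouts the 3 lists overlapped. Their part in the members' levels was not tested.

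**Figure D1:**
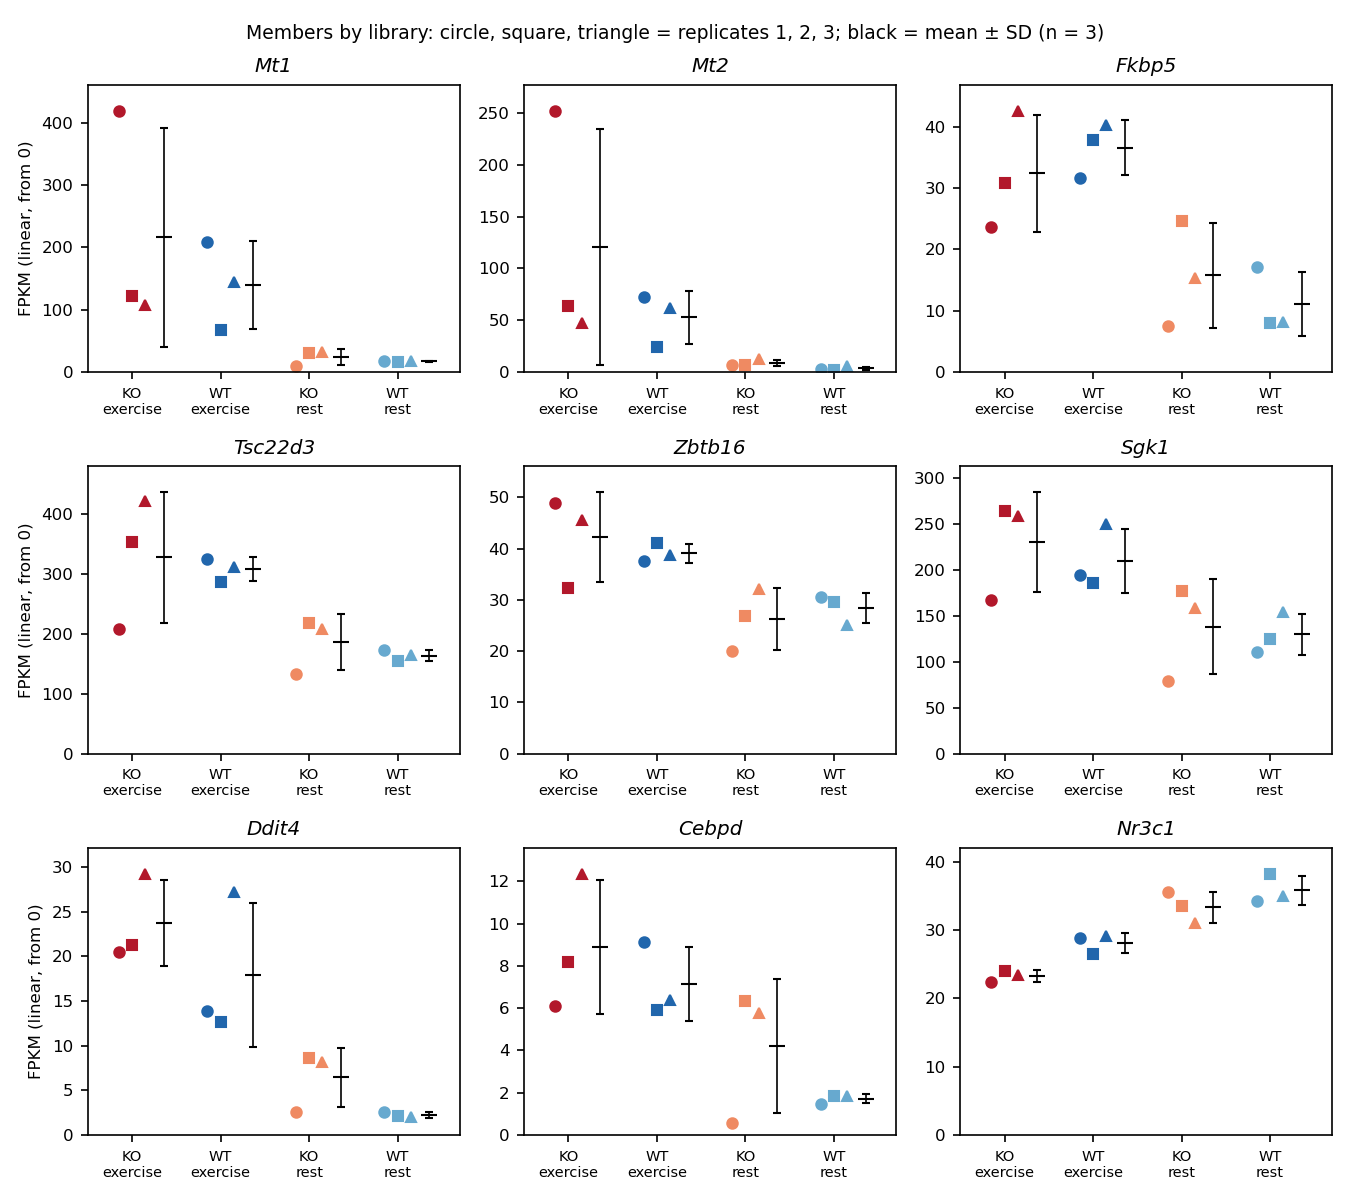
FPKM of each member (y axis, linear from 0) in every library, by group on the x axis; circles, squares and triangles are replicates 1, 2 and 3 and the black mark is the mean ± SD of 3 libraries. Mt1 and Mt2 sit far above rest in both exercised groups, with exercised knockout replicate 1 highest at 419 and 252 FPKM, while Nr3c1 sits lower in exercised than in resting libraries.

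The metallothioneins showed the widest gap. Mt1 measured 419, 122 and 107 FPKM in exercised knockouts, against 9.54, 29.7 and 32.4 in resting knockouts. Exercised wild types had 208, 66.6 and 144 FPKM after exercise, against 17.9, 16.3 and 17.1 at rest. The lowest exercised library was still more than 3 times the highest resting one in each genotype, and the exercised libraries differed among themselves by 3.90-fold in knockouts and 3.12-fold in wild types. Group means were 216 ± 176 FPKM in exercised and 23.9 ± 12.5 in resting knockouts, a ratio of 9.05, and 140 ± 70.7 FPKM in exercised and 17.1 ± 0.804 in resting wild types, a ratio of 8.15 (SD, n = 3 each). Without exercised knockout replicate 1 the knockout log2 ratio was 2.22 in place of 3.13.

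Mt2 followed the same pattern at lower levels. It measured 252, 63.5 and 47.3 FPKM in exercised knockouts, against 7.04, 6.70 and 12.4 in resting knockouts. Wild-type libraries held 72.7, 24.1 and 62.0 FPKM after exercise, against 2.79, 2.24 and 5.46 at rest. The groups did not overlap in either genotype, and replicate 1 was again the highest exercised library of both genotypes. Ratios of the group means were 13.9 in knockouts and 15.1 in wild types. Without exercised knockout replicate 1 the knockout log2 ratio was 2.54 in place of 3.65. By size of the log2 ratio among 10440 genes, Mt2 ranked 8 from the top in knockouts and 15 in wild types, and Mt1 ranked 9 in knockouts and 19 in wild types.

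The balance between the pair also differed by condition. FPKM of Mt1 over FPKM of Mt2 was 1.66, 1.91 and 2.27 in exercised knockouts, against 1.36, 4.43 and 2.61 in resting knockouts. Wild-type ratios were 2.86, 2.77 and 2.32 after exercise, against 6.43, 7.30 and 3.13 at rest. In wild types every exercised library had a smaller ratio than every resting one, and in knockouts the groups overlapped. The coding sequences of these paralogs are close to each other and the sources used here do not give how reads that map to both were handled, so the split between them is uncertain.

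Among the hormone-responsive genes Ddit4 had the largest ratio. Ddit4 encodes REDD1, an inhibitor of the growth kinase complex mTORC1. It measured 20.5, 21.3 and 29.2 FPKM in exercised knockouts, against 2.62, 8.57 and 8.17 in resting knockouts. Among wild types the values were 13.9, 12.6 and 27.2 FPKM after exercise, against 2.59, 2.08 and 2.01 at rest. The groups did not overlap in either genotype, the ratio of means was 3.67 in knockouts and 8.03 in wild types, and Ddit4 ranked 19 and 22 of 10440 genes in knockouts and wild types. Resting knockout replicate 1 sat with the resting wild types, and the other two resting knockouts stood more than 3 times higher.

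Fkbp5 and Cebpd came next. Fkbp5 encodes a co-chaperone that lowers the receptor's affinity for hormone and is itself a standard receptor target. It measured 23.7, 30.9 and 42.6 FPKM in exercised knockouts, against 7.47, 24.6 and 15.3 in resting knockouts, a ratio of means of 2.05. In wild types it measured 31.6, 37.8 and 40.3 FPKM after exercise, against 17.1, 8.02 and 8.18 at rest, a ratio of 3.30. Wild-type groups were apart, while in knockouts exercised replicate 1 fell just under resting replicate 2. Cebpd, a transcription factor of the CCAAT enhancer-binding family, was among the scarcer members. It measured 6.12, 8.21 and 12.4 FPKM in exercised knockouts, against 0.588, 6.35 and 5.76 in resting knockouts, a ratio of 2.10. Wild types had 9.13, 5.92 and 6.37 FPKM after exercise, against 1.48, 1.87 and 1.83 at rest, a ratio of 4.14. Its wild-type groups were also apart, and its knockout groups overlapped through the same 2 libraries.

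Tsc22d3 and Sgk1 were the most abundant of the hormone-responsive genes and had smaller ratios. Tsc22d3 encodes GILZ, a leucine zipper protein that mediates anti-inflammatory effects of glucocorticoids. It measured 208, 352 and 421 FPKM in exercised knockouts, against 133, 217 and 207 in resting knockouts, a ratio of 1.76. Wild types had 325, 286 and 311 FPKM after exercise, against 172, 154 and 164 at rest, a ratio of 1.88. The wild-type libraries of each condition lay close together, with the highest at most 1.13 times the lowest, so the groups were well apart, whereas exercised knockout replicate 1 lay inside the resting knockout range. Sgk1 encodes a serum- and glucocorticoid-regulated kinase that acts on ion channels and on FOXO factors. It measured 168, 265 and 259 FPKM in exercised knockouts, against 79.2, 177 and 159 in resting knockouts, a ratio of 1.67. Wild types stood at 195, 186 and 250 FPKM after exercise, against 110, 125 and 154 at rest, a ratio of 1.62. The overlap in knockouts was again between exercised replicate 1 and resting replicate 2.

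Zbtb16 encodes PLZF, a zinc finger transcription factor and a known receptor target. It measured 48.9, 32.2 and 45.5 FPKM in exercised knockouts, against 20.0, 26.8 and 32.0 in resting knockouts, a ratio of 1.61. In wild types it measured 37.5, 41.1 and 38.7 FPKM after exercise, against 30.5, 29.6 and 25.1 at rest, a ratio of 1.38. Both pairs of groups were apart, the knockout pair by the narrow step between 32.2 and 32.0. Its wild-type log2 ratio of 0.45 was the smallest of the 8 higher members, at rank 411.

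The receptor gene itself was the one member with lower levels after exercise. Nr3c1 measured 22.3, 24.1 and 23.4 FPKM in exercised knockouts, against 35.6, 33.5 and 31.0 in resting knockouts. Wild types measured 28.8, 26.4 and 29.1 FPKM after exercise, against 34.2, 38.3 and 35.0 at rest. No library of either exercised group reached the level of a resting library. Mean levels were 23.3 ± 0.88 FPKM in exercised and 33.3 ± 2.31 in resting knockouts, a ratio of 0.698, and 28.1 ± 1.47 in exercised and 35.8 ± 2.16 in resting wild types, a ratio of 0.785 (SD, n = 3 each). The log2 ratio was -0.50 in knockouts and -0.34 in wild types, both inside the range between the 1st and 99th percentiles of all genes.

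**Figure D2:**
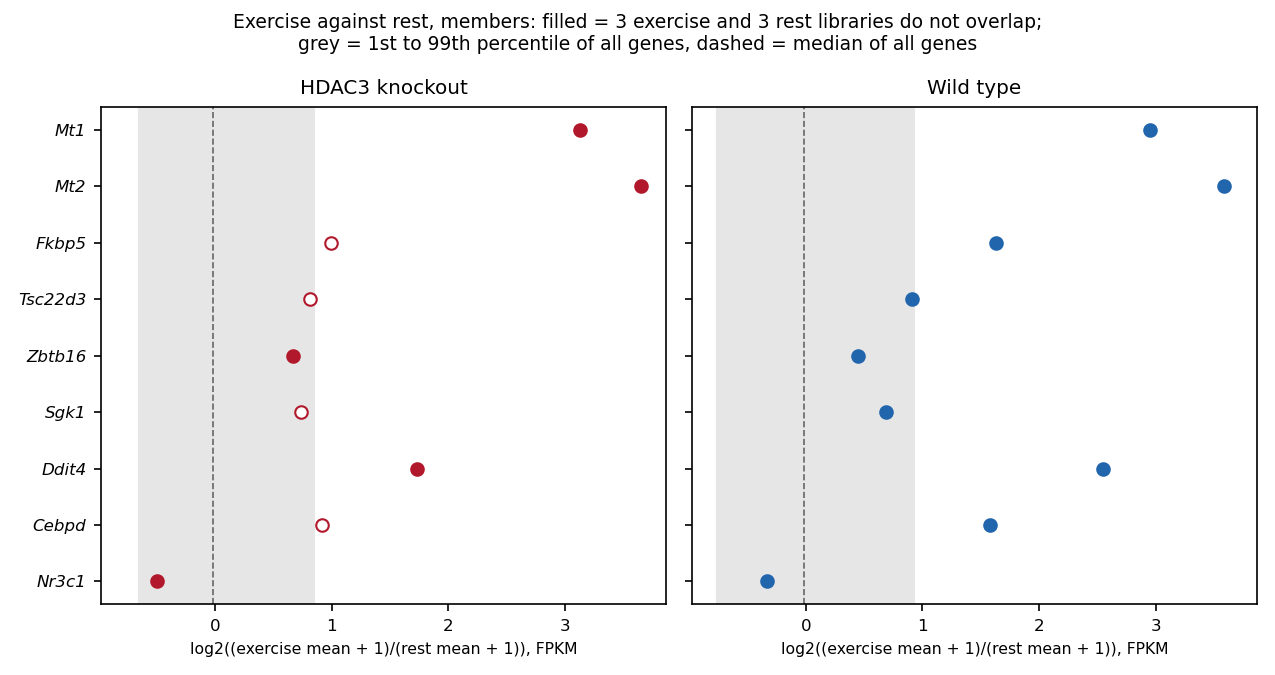
Log2 ratio of the exercised to the resting mean, each plus 1 FPKM (x axis), for each member (y axis) in HDAC3 knockouts on the left and wild types on the right; filled circles mark groups that did not overlap, the grey band spans the 1st to 99th percentile of all genes and the dashed line is their median. Mt1 and Mt2 lie near 3 to 4 in both genotypes, and Fkbp5, Tsc22d3, Sgk1 and Cebpd are open in knockouts only.

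The 4 overlaps in knockouts rested on 2 libraries. In Fkbp5, Tsc22d3, Sgk1 and Cebpd the exercised replicate 1 was the one library below the resting maximum, and that maximum was resting replicate 2 each time. Without exercised knockout replicate 1, or without resting knockout replicate 2, the count of members higher without overlap was 8 of 9 in knockouts; without any 1 of the other 4 knockout libraries it stayed at 4. With 2 libraries against 3, non-overlap is easier for every gene: the share of all genes was 9.04% without exercised replicate 1 and 9.85% without resting replicate 2. In wild types it was 8 whichever library was left out, where 9.5% to 13.8% of genes were higher. Whether the genotypes differ in their exercise response was tested as a difference of knockout effects, given further on.

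Resting knockout replicate 1 stood apart from its group in the low direction. It was the lowest resting knockout for 7 of 9 members and below the resting wild-type mean for 7 of 9, with a median log2 difference from that mean of -0.49, against 0.76 for resting knockout replicate 2 and 0.43 for replicate 3. Exercised knockout replicate 1 was the lowest of its group for 6 of 9 members, yet the highest for Mt1, Mt2 and Zbtb16. A low place was not particular to knockouts: exercised wild type replicate 2 was the lowest of its group for 7 of 9 members and below the wild-type mean for 7 of 9, by a smaller median of -0.18. Summed adipocyte markers were 30.8 FPKM in resting knockout replicate 1, beside 11.0 and 7.66 in replicates 2 and 3, and 10.2 FPKM in exercised knockout replicate 1, beside 28.3 and 26.4; their part in the members' levels was not tested. In whole muscle, fewer cells of a type and less RNA per cell cannot be told apart.

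**Figure D3:**
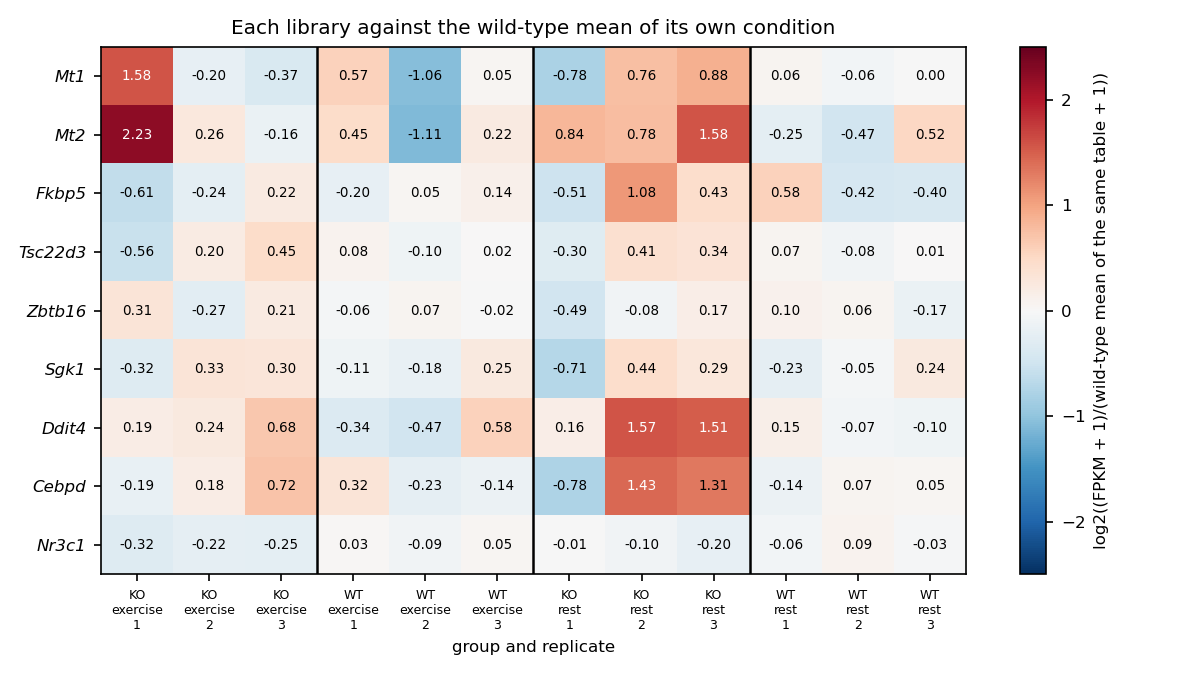
Log2 of each library's (FPKM + 1) over the wild-type mean (+ 1) of its own condition, for the members (rows) in the 12 libraries (columns, by group and replicate); red is higher and blue is lower. Mt1 and Mt2 are highest in exercised knockout replicate 1, at 1.58 and 2.23, and Ddit4 and Cebpd are highest in resting knockout replicates 2 and 3.

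After exercise, none of the 9 members differed between knockout and wild type past the threshold, an adjusted p of 0.05 by limma over 10360 genes, of which 2.71% were called, 1.19% higher and 1.53% lower in knockouts. At an unadjusted p under 0.05 there was 1 of 9, Nr3c1, where 18.4% of all genes were. Mean levels of Mt1 were 216 ± 176 FPKM in exercised knockouts and 140 ± 70.7 in exercised wild types, a log2 difference of 0.48 (SE 0.57, 95% interval -0.83 to 1.79, limma adjusted p = 0.708). Mt2 averaged 121 ± 114 FPKM in exercised knockouts and 52.9 ± 25.5 in exercised wild types, a log2 difference of 0.92 (SE 0.64, interval -0.55 to 2.39, limma adjusted p = 0.486). Both means were raised by knockout replicate 1, and the other two knockout libraries lay inside the wild-type range. Without that library Mt1 had a log2 difference of -0.14 and Mt2 of 0.19. In the authors' deposited table, where 9.57% of tested genes had a q at or under 0.05, Mt1 had q = 0.0165 and Mt2 q = 0.00132, and no other member passed.

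Nr3c1 was the one member with no overlap between the genotypes after exercise, its 3 knockout libraries all below the 3 wild types, where 12.5% of genes were so; 0 members lay wholly above, where 11.9% of genes did. Its log2 difference was -0.26 (SE 0.10, interval -0.50 to -0.02, limma adjusted p = 0.234). The hormone-responsive members other than Ddit4 differed by -0.20 to 0.25, and Ddit4 by 0.45 (interval -0.19 to 1.09, limma adjusted p = 0.435). The members' median was 0.11, beside 0.00 over all genes. Summed neutrophil and macrophage markers also separated the genotypes after exercise, at 49.4 to 379 FPKM in knockouts and 31.8 to 40.4 in wild types; their part in these differences was not tested.

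At rest no member passed by limma either, where 3.65% of 10501 genes were called (2.3% higher and 1.34% lower in knockouts), and 2 of 9, Mt2 and Ddit4, had an unadjusted p under 0.05, where 19.7% of genes did. These were also the members with every knockout library above every wild type, where 14.3% of genes were so; none lay wholly below, where 11.8% of genes did. Mt2 averaged 8.72 ± 3.20 FPKM in resting knockouts and 3.50 ± 1.73 in resting wild types, a log2 difference of 1.13 (SE 0.31, interval 0.41 to 1.85, limma adjusted p = 0.101). Ddit4 averaged 6.45 ± 3.33 FPKM in resting knockouts and 2.23 ± 0.318 in resting wild types, a log2 difference of 1.08 (SE 0.36, interval 0.24 to 1.93, limma adjusted p = 0.156). For Ddit4 the lowest knockout, 2.62 FPKM, was barely above the highest wild type, 2.59 FPKM. In the authors' deposited table, where 10.8% of tested genes had a q at or under 0.05, Ddit4 had q = 0.00119 and Fkbp5 q = 0.0373, while Mt2 had q = 0.0646.

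Cebpd differed by 0.66 (SE 0.54, limma adjusted p = 0.559), Fkbp5 by 0.41 (SE 0.43, limma adjusted p = 0.653) and Mt1 by 0.29 (SE 0.41, limma adjusted p = 0.754) at rest, with wide spread among the knockouts. Tsc22d3, Zbtb16, Sgk1 and Nr3c1 differed by -0.13 to 0.15. Leaving out resting knockout replicate 1 moved 2 members past the threshold: Ddit4 then rose by 1.54 (limma adjusted p = 0.0234) and Cebpd by 1.38 (limma adjusted p = 0.0291), while Mt2 was at 1.24 (limma adjusted p = 0.167) and Mt1 at 0.82 (limma adjusted p = 0.0517). Each of the 2 calls was made in 1 of 6 such fits: without resting knockout replicate 2, Ddit4 was at 0.84 and Cebpd at 0.27, and the adjusted p by limma reached 0.363 for Ddit4 and 0.85 for Cebpd over the 6 fits. Over the same fits Fkbp5 lay between 0.04 and 0.84. The members' median was 0.29, beside 0.00 over all genes. The 4 satellite cell markers summed to 1.63 to 3.07 FPKM in resting knockouts and 3.07 to 3.74 in resting wild types, and their part was not tested.

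**Figure D4:**
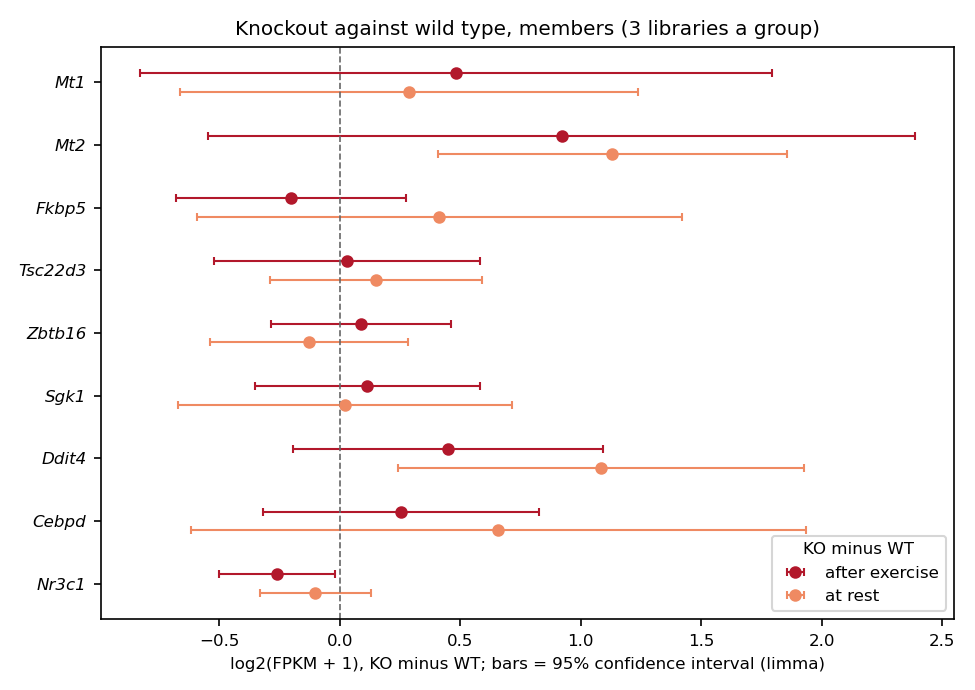
Difference between knockout and wild type in log2(FPKM + 1) (x axis) for each member (y axis), after exercise and at rest; points are limma estimates from 3 libraries per group and bars are 95% confidence intervals. The widest intervals belong to Mt1 and Mt2 after exercise, and only Mt2 and Ddit4 at rest and Nr3c1 after exercise have intervals that exclude 0 before adjustment.

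The knockout effect was then compared between exercise and rest with a limma contrast over all 12 libraries, in which a constant scale difference between the tables cancels. It called 0 of 10440 genes, and 507 genes (4.86%) had an unadjusted p under 0.05, none of them a member. Among the members the estimates ran between -0.64 for Ddit4 (interval -1.74 to 0.47, limma adjusted p = 0.923) and 0.22 for Zbtb16. For Fkbp5 it was -0.62 (interval -1.78 to 0.55, limma adjusted p = 0.923). Without 1 library these estimates lay between -1.09 and -0.31 for Ddit4, -1.04 and -0.24 for Fkbp5, and 0.04 and 0.39 for Zbtb16, and none was called. For Mt1 it was 0.19 (interval -1.56 to 1.94) and for Mt2 -0.21 (interval -1.99 to 1.57), intervals that reach more than 1 log2 unit to either side of 0 with 3 libraries per group.

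Across the 12 libraries, centred within each table, the members varied together to different degrees. Tsc22d3 and Sgk1 had r = 0.80, Mt1 and Mt2 0.79, Tsc22d3 and Cebpd 0.79, Sgk1 and Cebpd 0.79, and Ddit4 and Cebpd 0.77. Pairs of Zbtb16 with the other 5 hormone-responsive genes were lower, between 0.08 (Tsc22d3) and 0.39 (Cebpd). Pairs of a metallothionein with the 6 hormone-responsive genes lay between -0.26 (Mt2 and Tsc22d3) and 0.50 (Mt1 and Zbtb16). Between Mt2 and Nr3c1 it was -0.54. These values describe 12 libraries that share genotype groups and 2 tables and carry no test.

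Genes whose pattern was most like a member's were picked by the same correlation over 9936 genes. For Mt1 the leading 4 were Ank3 (r = 0.92), Zbtb43 (0.91), Slc30a2 (0.90), a zinc transporter, and Npc1 (0.86). For Mt2 the leading 5 were Hk2 (0.91), which encodes hexokinase 2, Lpin1 (0.91), a phosphatidate phosphatase that also acts with PGC-1α, Cab39 (0.91), Dhx8 (0.89) and Fam134b (0.89). For Fkbp5 the leading 5 were Cep85l (0.94), Clns1a (0.93), Fmo2 (0.92), Prr33 (0.91) and Cep78 (0.91). None of these was another member. Each r is among the highest of 9936 values over 12 libraries, so it is high by selection and carries no test. Slc30a2 was a low gene, with group means of 1.36 to 2.79 FPKM.

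Other genes known to answer to glucocorticoids in muscle were described in the same way. Of 24 on the list, 17 were higher without overlap in exercised than in resting wild types and 1, Bcl6, was lower; in knockouts 9 were higher and 0 lower. Over all genes 6.91% were higher and 8.94% lower in wild types, and 5.8% were higher and 9.6% lower in knockouts. The list's median log2 ratio was 0.53 in knockouts and 0.87 in wild types. Without 1 library the count higher was 9 to 12 in knockouts, where 9.04% to 11.3% of all genes were higher. In wild types it was 17 to 19, where 9.5% to 13.8% of all genes were higher. The fuel switch gene Pdk4, which encodes a kinase that shuts off pyruvate dehydrogenase, measured 966, 617 and 376 FPKM in exercised knockouts, against 89.1, 128 and 69.2 in resting knockouts. Trim63, which encodes the muscle ubiquitin ligase MuRF1, measured 600, 436 and 459 FPKM in exercised knockouts, against 159, 202 and 241 in resting knockouts, and 611, 236 and 260 in exercised wild types, against 98.8, 116 and 134 in resting wild types. Both genes were higher without overlap in both genotypes. The clock gene Per1, the regulator Klf15 and Glul, which encodes glutamine synthetase, were apart in wild types and overlapped in knockouts. Fbxo32 and Angptl4 went the other way, higher without overlap in knockouts and overlapping in wild types. Angptl4 averaged 0.888 FPKM in resting knockouts and 0.826 in resting wild types. It met the minimum mean of 1 FPKM over 12 libraries only through the exercised groups, so it counts among the 9 only with that limit. Glul measured 283, 406 and 556 FPKM in exercised knockouts, against 225, 458 and 345 in resting knockouts, and 431, 317 and 325 in exercised wild types, against 181, 96.4 and 91.7 in resting wild types.

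**Figure D5:**
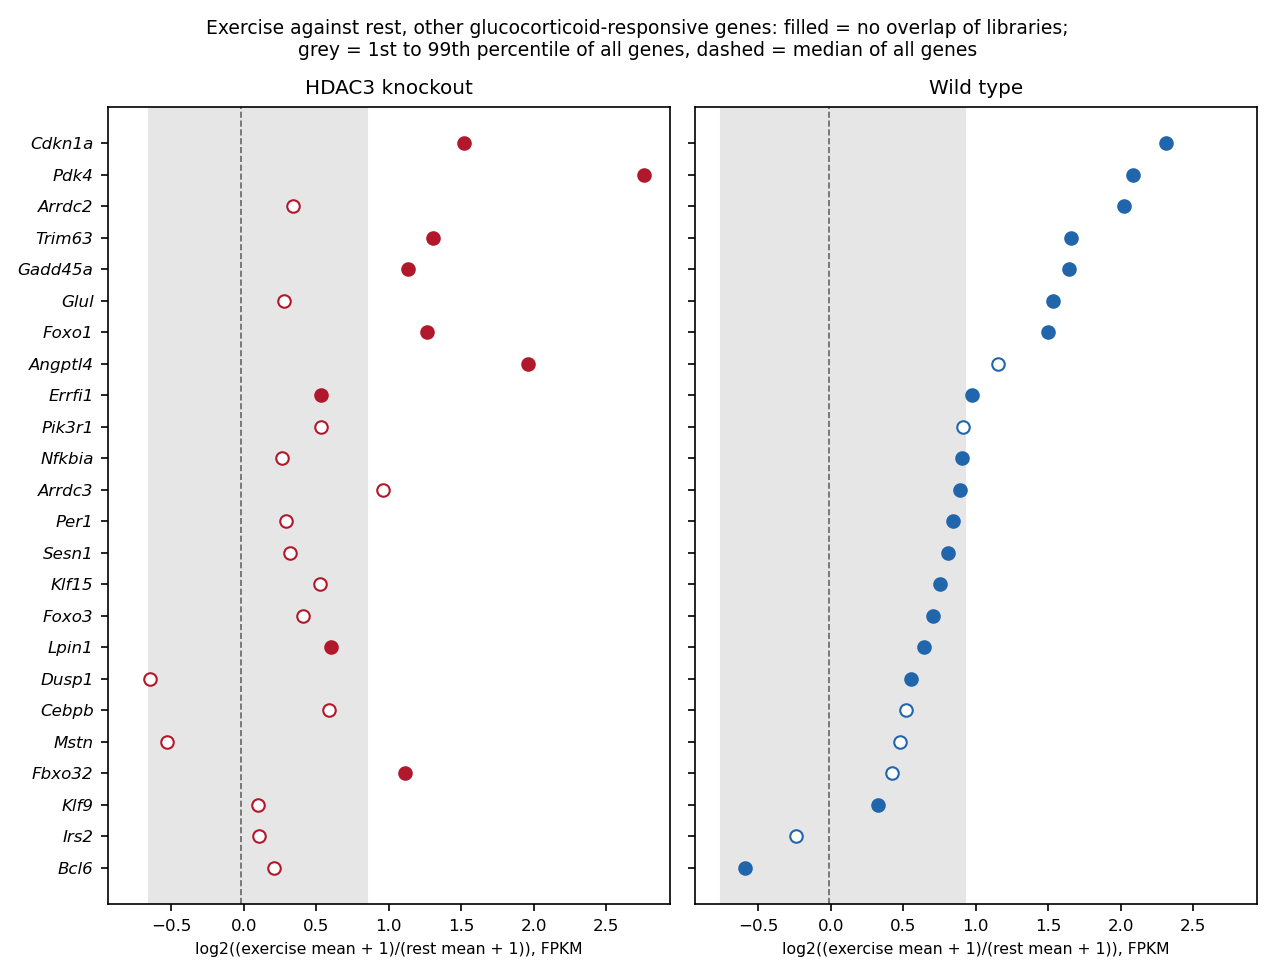
Log2 ratio of the exercised to the resting mean, each plus 1 FPKM (x axis), for 24 other glucocorticoid-responsive genes (y axis) in HDAC3 knockouts on the left and wild types on the right; filled circles mark groups that did not overlap, the grey band spans the 1st to 99th percentile of all genes and the dashed line is their median. In wild types 17 genes are filled on the higher side and Bcl6 on the lower side, and in knockouts 9 are filled, all on the higher side. Over all genes 6.91% were higher and 8.94% lower without overlap in wild types, and 5.8% higher and 9.6% lower in knockouts.

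Between genotypes, 2.71% of all genes passed the test after exercise and 3.65% at rest. Of this list 1 gene passed in each condition, the cell cycle inhibitor Cdkn1a. It measured 46.6, 33.6 and 40.0 FPKM in exercised knockouts, against 17.1, 7.13 and 5.20 in exercised wild types, and 11.3, 17.8 and 10.9 FPKM in resting knockouts, against 0.841, 1.12 and 1.56 in resting wild types. It rose in knockouts by 2.07 on the log2 scale after exercise (limma adjusted p = 0.0328) and by 2.70 at rest (limma adjusted p = 0.00599). The call at rest held in 6 of 6 fits that left out 1 library, and the call after exercise in 1 of 6, with adjusted p between 0.00688 and 0.101. The most abundant genes of the list, Pdk4 and Glul, differed by 0.27 and 0.17 after exercise and by -0.56 and 1.48 at rest (limma adjusted p = 0.847, 0.758, 0.479 and 0.0574 in that order). The list's median difference was 0.26 after exercise, with 24 genes fitted, and 0.47 at rest, with 23, beside 0.00 over all genes in each. At a q of 0.05, the authors' deposited table held 5 genes of the list higher and 1 lower after exercise, and 11 higher and 2 lower at rest. Over all tested genes 9.57% passed that q after exercise and 10.8% at rest, in either direction.

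In the mTORC1 pathway, on which Ddit4 acts, 18 genes other than Ddit4 were fitted. By limma 1 rose in knockouts after exercise and 3 rose at rest, and none fell (median differences 0.04 and 0.07). Over all genes 1.19% rose after exercise and 2.3% at rest. At a q of 0.05, the authors' deposited table held 2 higher and 1 lower after exercise, and 4 higher and 1 lower at rest. Over all tested genes 9.57% passed that q after exercise and 10.8% at rest. Deptor, which encodes an mTOR-binding inhibitor, measured 15.7, 20.0 and 14.1 FPKM in exercised knockouts, against 8.38, 7.59 and 7.85 in exercised wild types, and rose by 0.97 (SE 0.15, limma adjusted p = 0.0228). At rest Deptor rose by 0.88 (limma adjusted p = 0.0440), the translation repressor Eif4ebp1 by 1.04 (limma adjusted p = 0.0182) and Sesn2, an upstream inhibitor of mTORC1, by 1.03 (limma adjusted p = 0.0263). Sesn2 stood at 1.56 to 2.32 FPKM in resting knockouts and at 0.313 to 0.651 in resting wild types. It met the minimum mean of 1 FPKM only through the knockouts, so it counts among the 3 only with that limit. Without 1 library the adjusted p by limma was 0.0379 to 0.0782 for Deptor after exercise, and at rest 0.074 to 0.132 for Deptor, 0.00872 to 0.0847 for Eif4ebp1 and 0.0475 to 0.108 for Sesn2. After exercise against rest, Eif4ebp1 was higher and Ddit4l lower without overlap in both genotypes, and 3 genes were higher and 2 lower in each genotype over the list, where 5.8% of all genes were higher and 9.6% lower in knockouts and 6.91% higher and 8.94% lower in wild types.

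Between the genotypes, 2.71% of all genes passed after exercise, and at rest 3.65% passed and 1.34% were lower in knockouts. Of the receptor's chaperones and cofactors 19 were fitted: none passed after exercise and 1 fell at rest, Ep300, which encodes the acetyltransferase p300. It measured 4.48, 4.34 and 4.20 FPKM in resting knockouts, against 6.16, 7.05 and 7.04 in resting wild types, and fell by 0.54 (SE 0.11, limma adjusted p = 0.0443), a call that ended in each of the 6 fits without 1 library (adjusted p 0.0642 to 0.183). After exercise against rest, 3 of the 19 were higher and 3 lower without overlap in wild types, and 2 were higher and 1 lower in knockouts, beside 6.91% and 8.94% of all genes in wild types and 5.8% and 9.6% in knockouts. In wild types the 3 higher ones were the chaperone genes Hsp90ab1, Ptges3 and Hspa8, while Hsp90aa1, Fkbp4 and Stip1 overlapped. The 3 lower ones were Nr3c2, Ncoa2 and Ep300. For Nr3c2 the ratio of means was 0.492 in wild types, and its knockout groups overlapped. Between the genotypes, the abundant Hsp90ab1 differed by -0.41 after exercise (limma adjusted p = 0.115) and by -0.44 at rest (limma adjusted p = 0.0758), and Hspa8 by -0.10 and 0.03. In the authors' deposited table Hsp90ab1 had q = 0.162 after exercise and q = 0.0436 at rest. At a q of 0.05, that table held 1 of the 19 lower after exercise and 2 lower at rest, and 0 higher. Over all tested genes 9.57% passed that q after exercise and 10.8% at rest.

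Zinc sensing and transport genes gave no limma call between the genotypes. Of the 22, 15 reached the minimum level and 0 passed in either condition. Over all genes 2.71% passed after exercise and 3.65% at rest, so the lack of limma calls among so few genes says little. At a q of 0.05, the authors' deposited table held 1 of the 15 higher and 3 lower after exercise, and 0 higher and 1 lower at rest. Over all tested genes 9.57% passed that q after exercise and 10.8% at rest, in either direction. After exercise against rest 2 were higher and 3 lower without overlap in knockouts, and 2 were higher and 2 lower in wild types, few genes beside all-gene shares of 5.8% and 9.6% in knockouts and 6.91% and 8.94% in wild types. The importer gene Slc39a14 was higher and the exporter gene Slc30a1, itself a target of MTF1, was lower in both genotypes. Slc39a1, of the same family as Slc39a14 and more abundant, was also lower without overlap in both genotypes. Its means were 14.2 FPKM in exercised and 17.1 in resting knockouts, and 16.9 in exercised and 20.9 in resting wild types. The abundant transporters Slc30a9 and Slc39a1 differed by -0.40 and -0.23 after exercise and by -0.16 and -0.27 at rest. Of the SGK family and its substrates 5 were fitted and 0 passed by limma, beside all-gene shares of 2.71% after exercise and 3.65% at rest. The authors' q called 1 of the 5, lower after exercise, and 0 at rest, beside 9.57% and 10.8% of all tested genes. The substrate Ndrg2 differed by 0.43 at rest (limma adjusted p = 0.0518) and 0.32 after exercise. The activating kinase Pdpk1 differed by -0.05 at rest and -0.17 after exercise. In the CCAAT enhancer-binding family 4 were fitted and 1, Cebpg, rose at rest by limma, where 2.3% of all genes rose. The authors' q called 2 of the 4 at rest and 1 after exercise, all higher, beside 10.8% and 9.57% of all tested genes. Cebpg measured 36.5, 32.9 and 30.8 FPKM in resting knockouts, against 19.8, 22.4 and 23.1 in resting wild types, and rose by 0.59 (limma adjusted p = 0.0328, and 0.0534 to 0.119 without 1 library), and none passed after exercise. Ddit3, which encodes the stress factor CHOP, differed by 0.59 after exercise and 0.66 at rest and did not pass. Ep300, Cdkn1a, Cebpg and the genes given for exercise against rest were picked for naming after their values were seen.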

How the data were processed

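RNA-seq values came as one deposited table per condition, told apart by the tables' own names. Each held FPKM for 6 libraries, group means, and p-values and q-values. Per the submitters' processing notes, the tools were TopHat2, Bowtie, HOMER and Cuffdiff, on mm9. Not given in the sources used here are versions, annotation, strandedness, the handling of shared reads and whether both tables were normalized together. FPKM were deposited by the authors as normalized for transcript length and library size, so no count model was used. Each p-value and q-value was deposited by the authors from their own genotype comparison, and the authors' deposited table is named wherever its q is printed. Depth was unknown: among genes under 0.3 FPKM, log2 ratios had a median interquartile range of 1 over 30 library pairs. That spread cannot give the size of 1 read, so no counting error is given. The GRO-seq libraries were not analysed here, and 27 rows whose names a spreadsheet had turned into dates in the exercise table were left out.

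The genotypes were compared within each table on log2(FPKM + 1), with limma 3.58.1 (R 4.3.3), for genes with a mean of at least 1 FPKM, with moderated variances, a mean-variance trend and Benjamini-Hochberg adjustment over all genes fitted, called at 0.05, two-sided. Fold changes on this scale understate the change of low genes. The scripts were tested on simulated data. With 3 libraries a group, exact permutation could not go below p = 0.1 and was not used. As the labels name no animals, p-values measure the spread between these libraries, which may be technical. No library pair shared more than 1 identical value among 8946 genes, so each counted once. Exercise was set against rest by group means and by overlap of libraries, with no test. Members and lists were chosen with earlier results of these data known. Named genes were the members, Hdac3, up to 4 called genes per list in order of adjusted p or the 2 of highest FPKM, and the 5 most correlated genes for Mt1, Mt2 and Fkbp5 (1 of those for Mt1 is not reported here); the genes named outside this rule are identified in the text. Alternatives were the pseudocount (0.1), no filter, median centring, no variance trend, a replicate block, a spread shared by 12 libraries, the authors' q, and leaving out each library.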

Additional observations from a re-analysis of the deposited data

How the results depend on the processing

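The number of genes called at rest (383) was 247 with no filter on low values, 36 with a replicate block, 632 with the spread shared over 12 libraries, 998 by q in the authors' deposited table and 21 to 231 without 1 library. The number after exercise (281) was 109, 114, 558 and 865 in that order of settings and 47 to 74 without 1 library; the cause was not tested, beyond fewer libraries per fit. The contrast of the knockout effects called 0 to 1 genes without 1 library. Same-numbered libraries of both genotypes deviated together with r between 0.037 and 0.052 at rest, beside -0.086 to 0.032 for differently numbered ones. After exercise r lay between -0.25 and 0.017 for same-numbered libraries and between -0.13 and 0.24 for differently numbered ones. Deviations from means of 3 libraries are tied to each other, so these values cannot settle whether the numbers pair the samples. With the replicate block Mt2 passed at rest (1.13, limma adjusted p = 0.0494). Ep300 (0.12), Eif4ebp1 (0.0628), Deptor (0.068), Sesn2 (0.068) and Cebpg (0.103) no longer passed at rest with the block (limma adjusted p in parentheses). With no filter on low values, Ep300 (0.0785) and Deptor (0.0742) no longer passed at rest, nor Cdkn1a (0.0707) after exercise. With no variance trend, Deptor (0.0572) and Cebpg (0.0512) no longer passed at rest. No other fit run called a member, apart from those given in the report. The knockout count of members higher after exercise without overlap was 4 to 8 without 1 library, where 9.04% to 11.3% of all genes were higher. This alternative was chosen after seeing the data. Some small differences changed sign without 1 library. After exercise Mt1 lay between -0.14 and 0.84, Tsc22d3 between -0.18 and 0.33, Zbtb16 between -0.027 and 0.27, Glul between -0.063 and 0.42, Hspa8 between -0.27 and 0.072 and Pdk4 between -0.27 and 0.91. At rest Mt1 lay between -0.0090 and 0.82, Sgk1 between -0.20 and 0.38, Zbtb16 between -0.28 and 0.048, Hspa8 between -0.13 and 0.29 and Pdpk1 between -0.15 and 0.10. For the contrast of effects Mt1 lay between -0.43 and 0.55, Mt2 between -0.94 and 0.26, Sgk1 between -0.26 and 0.31 and Tsc22d3 between -0.35 and 0.17. With depth unknown, low values such as those of Cebpd and Mt2 at rest have an error that only the 3 libraries show.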
